A study of Mus musculus with 16 samples.

Results

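PA6 cells grown alone with BMP4 were compared with PA6 cells grown alone without an added growth factor (-GFs), at day 7. The 6 arrays of these 2 groups, 3 per group, were taken out of the 16 arrays of a study of mouse embryonic stem (ES) cells on PA6 stroma, and were chosen by the cell line and growth factor in their labels. PA6 is an established mouse stromal line, and no ES cells were present in these wells. The medium was serum-free in every well. The BMP4 wells received recombinant BMP4 for 3 days, at 10 ng/ml per the labels, a higher dose than the one in the study's methods. Those methods have the factors present from the start and removed after 3 days, ahead of day 7. For each biological replicate there was 1 untreated well, 1 well with BMP4 and 1 well with FGF2 at 20 ng/ml, so that arrays of the same replicate number form a set. Each well gave 1 array, an Illumina BeadChip for the mouse genome (MouseWG-6 v2.0). A probe was retained when its detection p-value, the fraction of control beads without a target that outshine it, was under 0.05 on every array of the BMP4 group or of the -GFs group. This kept 16301 of 45281 probes and, with the brightest probe of each gene, 11574 of 30854 target names. Levels are background corrected, quantile normalized intensities on the log2 scale, and gene names are those of the array design. The comparison addressed whether the stroma by itself, without ES cells above it, responds to BMP4.

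BMP4 is a secreted ligand of the bone morphogenetic protein family. It binds pairs of type I and type II serine/threonine kinase receptors, which phosphorylate SMAD proteins that enter the nucleus and turn on early targets such as the ID genes and the inhibitory SMADs. In mesenchymal and stromal cells BMP signalling is known for directing commitment to bone, cartilage or fat, and PA6 cells were derived as a preadipocyte line. Differentiation to fat cells runs through the transcription factors PPARG and CEBPA, which turn on the genes of lipid storage and of the secreted adipokines.

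The threshold for a call, taken from the methods of the study, was an adjusted p (limma, Benjamini-Hochberg) under 0.1 together with a log2 difference over 1 in size. Of 11574 genes, 1 was called (0.00864%), DOC2B, and 1239 (10.7%) had an unadjusted p under 0.05. With the replicate number as a block, which compares each BMP4 well with the untreated well of its own replicate, 11 genes were called (0.095%), 7 higher (0.0605%) and 4 lower (0.0346%), at adjusted p values of 0.0526 to 0.0777. The 7 that were higher were FMO1, ADIPOQ, CIDEC, DOC2B, 3321402G02RIK, ORM1 and CFD. The 4 that were lower were LMCD1, A330049H05RIK, 4930506M07RIK and AA388235. Of these 11 genes, ADIPOQ and CFD were detected on all 6 arrays. The other 9 were detected on all 3 arrays of the higher group and on 0 to 2 of the lower one, so they passed the filter only through the group where they were high, and their number is no measure of how many genes responded. With detection required on all 6 arrays, the blocked comparison called ADIPOQ alone. The call of 11 genes depended on the whole set of arrays and on the filter. Without replicate 1, whose untreated array was high in fat cell genes, the blocked comparison called ADIPOQ alone, and without replicate 2 or replicate 3 it called 0 genes. Where probes detected on every array of any of the 6 groups of the study were tested, or no filter was set, it called 0 genes, and with median scaling in place of quantile normalization it called 74, 37 in each direction.

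**Figure D1:**
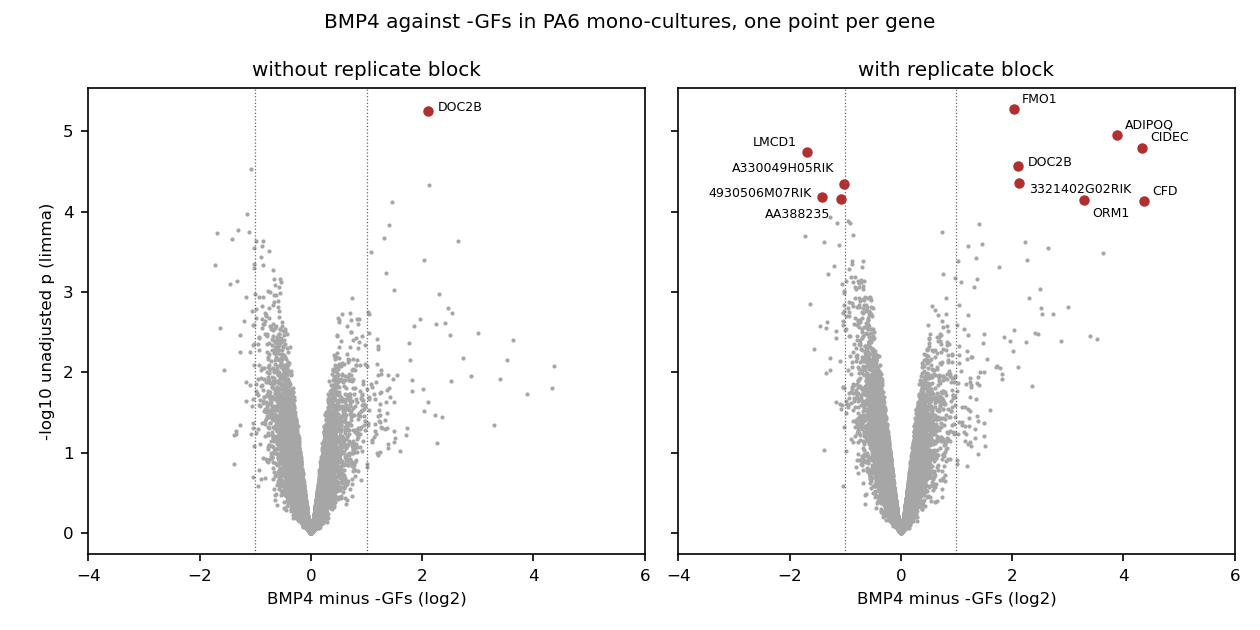
Each point is 1 of the 11574 tested genes, with the BMP4 minus -GFs difference on the log2 scale (x) against -log10 of the unadjusted limma p (y), without the replicate block (left) and with it (right). Filled points are called genes, 1 on the left and 11 on the right, and dotted lines mark a log2 difference of 1. The points over 3 on the x axis are lower on the left than on the right.

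The largest differences were in genes of the fat cell. CFD, which encodes the adipokine adipsin (complement factor D), was at 12.94, 8.63 and 8.33 on -GFs arrays 1, 2 and 3, and at 15.92, 12.58 and 14.51 on the BMP4 arrays of the same numbers. Its level was higher with BMP4 in all 3 pairs, but untreated array 1 lay above BMP4 array 2, so the groups overlapped. CFD rose by 4.36 on the log2 scale with the block (SE 0.54, adjusted p = 0.0777), which is a 20.6-fold difference between the group means. BMP4 array 1 lay close to the brightest level of the arrays (16.09), where a level may not be fully measured, so the fold is approximate. Without the block the SE was 1.30 and the adjusted p was 0.393.

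ADIPOQ encodes adiponectin, the hormone secreted by fat cells. It was at 12.69, 8.04 and 8.89 on the -GFs arrays and at 15.38, 12.02 and 13.87 on the BMP4 arrays. Each BMP4 array was above its own untreated array, by 2.69, 3.98 and 4.98, and again untreated array 1 was above BMP4 array 2. ADIPOQ rose by 3.88 (SE 0.36, adjusted p = 0.0526 with the block and 0.423 without it), or 14.8-fold.

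CIDEC encodes a lipid droplet protein that drives the fusion of small droplets into large ones. It was at 11.72, 6.81 and 7.46 on the -GFs arrays, where 2 of 3 arrays detected it, and at 15.40, 10.96 and 12.60 on the BMP4 arrays. The order of the replicates was like that of ADIPOQ, with replicate 1 highest and replicate 2 lowest in both groups. CIDEC rose by 4.32 (SE 0.43, adjusted p = 0.0526 with the block and 0.423 without it).

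In bulk RNA, more fat cells and more of these transcripts per cell cannot be told apart. Untreated array 1 was well above the other 2 untreated arrays in these 3 genes, and all 3 BMP4 arrays exceeded the untreated array of their own number. With replicate 1 left out of the blocked comparison, ADIPOQ was called and CFD and CIDEC were not. The sizes also moved with the processing and with single arrays left out. Without the block the alternatives gave 3.55 to 5.85 for CFD, 2.97 to 5.29 for ADIPOQ and 3.12 to 5.85 for CIDEC, so their folds are approximate. The replicates of a group were far apart, and the SD over 3 arrays of ADIPOQ was 2.47 without and 1.68 with BMP4.

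**Figure D2:**
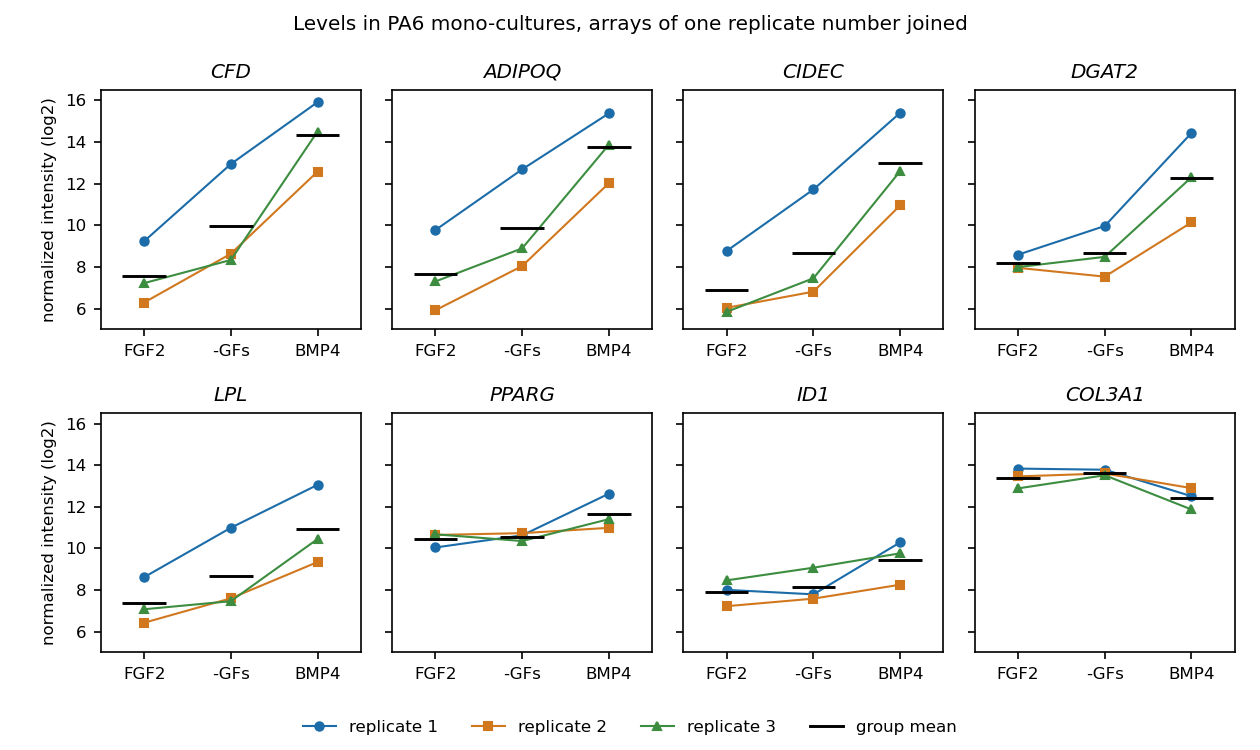
Normalized intensity (log2, y) of 8 genes on the 9 PA6 arrays, grouped as FGF2, -GFs and BMP4 (x), with the arrays of 1 replicate number joined by a line and the group mean as a black bar. CFD, ADIPOQ, CIDEC and LPL were higher at BMP4 than at -GFs along every line, with replicate 1 on top, PPARG and ID1 differed less, and COL3A1 was lower on all 3 BMP4 arrays.

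The promoters of these 3 genes are shown because they rose together in the blocked comparison. Each sequence runs 5′ to 3′ on the strand of the gene from 250 bases before its start to 50 after it, from RefSeq on build GRCm38.p6. Capitals mark a match on either strand to the motifs searched, the C/EBP motif TTGCNNAA, the TATA box TATAAA, the BMP-responsive SMAD motif GGCGCC and the CCAAT box CCAAT. Adipoq lies at chr16:23146286-23146585 on the plus strand, Cfd at chr10:79890603-79890902 on the plus strand, and Cidec has 2 starts on the minus strand, at chr6:113435711-113436010 and chr6:113434715-113435014.
Adipoq: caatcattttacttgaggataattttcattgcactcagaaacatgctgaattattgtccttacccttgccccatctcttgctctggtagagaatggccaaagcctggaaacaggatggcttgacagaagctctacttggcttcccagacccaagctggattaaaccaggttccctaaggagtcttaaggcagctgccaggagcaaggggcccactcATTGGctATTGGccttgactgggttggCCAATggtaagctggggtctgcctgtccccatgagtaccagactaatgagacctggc
Cfd: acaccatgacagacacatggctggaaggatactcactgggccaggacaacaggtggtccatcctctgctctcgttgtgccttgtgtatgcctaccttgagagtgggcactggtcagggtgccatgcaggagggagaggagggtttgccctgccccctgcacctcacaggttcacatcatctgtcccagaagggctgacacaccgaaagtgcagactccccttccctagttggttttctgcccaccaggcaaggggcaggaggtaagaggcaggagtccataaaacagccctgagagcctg
Cidec, first start: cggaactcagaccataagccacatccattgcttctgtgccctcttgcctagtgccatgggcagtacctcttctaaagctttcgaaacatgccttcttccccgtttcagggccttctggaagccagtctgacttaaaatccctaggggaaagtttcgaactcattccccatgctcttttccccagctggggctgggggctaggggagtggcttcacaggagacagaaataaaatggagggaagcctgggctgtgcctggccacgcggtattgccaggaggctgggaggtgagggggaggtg
Cidec, second start: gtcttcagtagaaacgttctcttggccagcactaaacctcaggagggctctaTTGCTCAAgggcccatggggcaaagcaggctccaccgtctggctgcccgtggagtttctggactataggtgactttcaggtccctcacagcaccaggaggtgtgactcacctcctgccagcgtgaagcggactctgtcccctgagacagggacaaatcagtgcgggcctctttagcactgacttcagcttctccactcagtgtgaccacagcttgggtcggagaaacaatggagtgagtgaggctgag

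The Adipoq window held 3 CCAAT boxes, which began 34, 27 and 7 bases before the start, with the first and second on the opposite strand. The second Cidec window held 1 C/EBP motif, 198 bases before the start, and the other 2 windows held none of the 4 motifs. Among 32851 promoters of the same length, a CCAAT box was present in 37.4%, the C/EBP motif in 10.8%, TATAAA in 13.6% and GGCGCC in 11.9%. These matches describe the sequence and were not tested as binding sites.

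The other genes of lipid storage were mostly higher with BMP4. Of 39 adipocyte lipid and adipokine genes on the list, 38 were on the array and 22 passed the filter. None was called without the block, where 11 had an unadjusted p under 0.05 on the higher side (4.21% of all genes did) and 0 on the lower side (6.5%). With the block, 4 were called, all higher (0.0605% of all genes), namely ADIPOQ, CFD, CIDEC and ORM1. CIDEC and ORM1 passed the filter only through their BMP4 arrays, so the count of 4 is no measure of the list. BMP4 was above -GFs in all 3 pairs for 15 of the 22 and below in all 3 for 0, against 14.3% and 20.6% of all tested genes. The median difference of the 22 was 0.996, and that of all tested genes was -0.02. The median within replicate 1 was 2.04, within replicate 2 it was 0.40 and within replicate 3 it was 0.96. The shift of the list was smallest in the pair whose untreated and treated arrays were both lowest for ADIPOQ.

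Among the enzymes of triglyceride synthesis, DGAT2, which catalyses the last step, was at 9.97, 7.53 and 8.48 on the -GFs arrays and at 14.43, 10.14 and 12.31 on the BMP4 arrays. Its groups did not overlap, the lowest BMP4 array being just above the highest untreated one. Its difference of 3.63 was not called (adjusted p = 0.145 with the block and 0.342 without it). ACSL1, which activates long-chain fatty acids, differed by 2.52 (adjusted p = 0.203 with the block), and AGPAT2, which makes phosphatidic acid for triglycerides, by 1.24 (adjusted p = 0.323 with the block). DGAT1, the other enzyme of the last step, was above its pair in replicates 1 and 3 but not in replicate 2, and its mean difference was 1.16. SCD1, the desaturase that makes oleate, behaved like DGAT1 in sign, with a mean difference of 1.14.

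Lipoprotein lipase, LPL, which releases fatty acids from circulating triglycerides, was at 10.99, 7.60 and 7.47 without and at 13.05, 9.35 and 10.45 with BMP4. Every BMP4 array was above its own untreated array, and the groups overlapped because of untreated array 1. The difference was 2.26 (SE 0.37 with the block, adjusted p = 0.153). PNPLA2, the lipase that starts the breakdown of stored triglyceride, differed by 1.82 (adjusted p = 0.293 with the block), and MGLL, which splits off the last fatty acid, by 0.75 (adjusted p = 0.328 with the block). The droplet coat protein gene S3-12 (PLIN4) differed by 0.85 (adjusted p = 0.273 with the block). The defining fat cell genes were not uniformly measured. FABP4, FASN, SLC2A4 and PCK1 were detected on 0 of 6 arrays, and PLIN1 and RETN on 2 and 1 of 6, so that none of these was tested.

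Transcription factors of fat cell formation were measured as well. PPARG was at 10.63, 10.73 and 10.36 without and at 12.63, 10.99 and 11.41 with BMP4. The groups did not overlap, with BMP4 array 1 far above the others. Its difference of 1.10 was not called (SE 0.37, adjusted p = 0.422 without the block and 0.337 with it), and a second, dimmer probe of PPARG was higher in replicates 1 and 3 and lower in replicate 2. CEBPA, the partner of PPARG, differed by 0.78 (adjusted p = 0.443 without the block and 0.329 with it), with all 3 BMP4 arrays above the untreated ones. PPARGC1B, a coactivator of PPARG and of mitochondrial genes, differed by 1.86 (adjusted p = 0.342 without the block), and it was detected on 1 untreated array and on all 3 with BMP4. The early factors CEBPB and CEBPD differed by 0.11 and -0.11. EBF2, a factor of the preadipocyte and of the brown fat lineage, was below its pair in all 3 replicates, with a difference of -0.93 (adjusted p = 0.393 without the block). Of 17 factors on the list 13 were tested, 0 were called in either comparison, and 5 were higher and 2 lower in all 3 pairs (14.3% and 20.6% of all genes). DLK1, the membrane protein of preadipocytes that restrains their conversion, was at 15.76 to 15.79 without and 15.71 to 15.94 with BMP4. It differed by 0.04 and a second probe of DLK1 by -0.26. Both probes lay close to the brightest level of the arrays (16.09), where a change in either direction may not be measurable, so no absence of change is read from them. Of 13 genes on the list of restrainers of adipogenesis 12 were tested, with 0 called and a median of -0.05.

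ORM1 and ORM2, which encode the plasma protein orosomucoid and are near-identical copies whose signals may not be fully separated by their probes, were both higher. ORM1 was at 10.48, 6.05 and 6.88 without and at 13.93, 9.06 and 10.27 with BMP4, and was detected on 2 of 3 untreated arrays. Its differences within pairs were close to each other, and its groups overlapped through untreated array 1. ORM1 rose by 3.28 with the block (SE 0.41, adjusted p = 0.0777), and without it the SE was 1.42 and the adjusted p 0.458. ORM2, detected on 1 of 3 untreated arrays and so tested only through its BMP4 arrays, differed by 3.40, with 2 untreated values at background (adjusted p = 0.236 with the block). LCN2, the iron-siderophore binding protein lipocalin 2, which fat cells also secrete, was at 11.83, 10.31 and 10.85 without and at 15.91, 12.30 and 13.79 with BMP4. The groups did not overlap, and the difference of 3.00 was not called (adjusted p = 0.203 with the block and 0.342 without it). LCN2 on BMP4 array 1 was close to the brightest level of the arrays (16.09). HP, which encodes haptoglobin, the plasma protein that binds free haemoglobin, differed by 0.71 and CP, which encodes the copper carrier ceruloplasmin, by -0.67 (adjusted p = 0.293 and 0.185 with the block). Of 19 acute phase and complement genes 12 were tested, and 1 was called with the block (ORM1, against 0.0605% of all genes called higher). ORM1 passed the filter only through its BMP4 arrays. Without the block 4 had an unadjusted p under 0.05 on the higher side (4.21% of all genes) and 1 on the lower side (6.5%). In all 3 pairs 4 were higher (14.3% of all genes) and 4 lower (20.6%), and the median was 0.08.

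The remaining called genes that were higher have no shared list. DOC2B, a calcium sensor of vesicle fusion that takes part in insulin-driven transport of vesicles to the membrane, was at 5.48, 5.43 and 5.28 without and at 7.98, 7.12 and 7.40 with BMP4. It was detected on 0 of 3 untreated and on 3 of 3 BMP4 arrays, so that it entered the test only through the group where it was high. DOC2B rose by 2.10 (SE 0.23, adjusted p = 0.0644 without the block and 0.062 with it), and against the detection level of the untreated arrays it was at least 1.75-fold higher with BMP4. Without the block its call was lost in each comparison that left out 1 untreated array, FGF2 array 1 or BMP4 array 3. The adjusted p under the alternatives that lost the call at the threshold of 0.1 was 0.104 to 0.425. This bound and every other written as at least so many fold sets the mean of the bright group against the dimmest detected probes of the dim arrays. FMO1, a flavin-containing monooxygenase that oxidizes foreign compounds and small amines, was at 7.27, 6.28 and 6.91 without and at 9.62, 8.12 and 8.80 with BMP4, with no overlap, and was detected on 2 of 3 untreated arrays. FMO1 rose by 2.03 with the block (SE 0.17, adjusted p = 0.0526), and without it the adjusted p was 0.232. The transcript 3321402G02RIK was detected on 0 untreated and 3 BMP4 arrays and was at least 2.84-fold higher with BMP4 (adjusted p = 0.0758 with the block and 0.183 without it).

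A difference of over 1 in all 3 pairs was present for 28 genes on the higher side (0.242%) and for 6 on the lower side (0.0518%). The 28 included, beside those above, the liver-type glycogen synthase GYS2 and the glutathione transferase GSTA3. GYS2 was at 5.99, 5.58 and 5.66 without BMP4, undetected on all 3 arrays, and at 9.67, 7.62 and 7.88 with BMP4. It was at least 3.25-fold higher (adjusted p = 0.132 with the block, not called), and GYS2 too passed the filter only through its BMP4 arrays. GSTA3, chosen for mention after its values had been seen, differed by 2.23 (adjusted p = 0.129 with the block). BC054059, a transcript with no role given here, was at 7.67, 5.71 and 5.39 without and at 11.85, 7.46 and 10.02 with BMP4, and its difference of 3.52 was not called (adjusted p = 0.238 with the block). It was detected on 1 of 3 untreated arrays and was tested only through its BMP4 arrays.

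**Figure D3:**
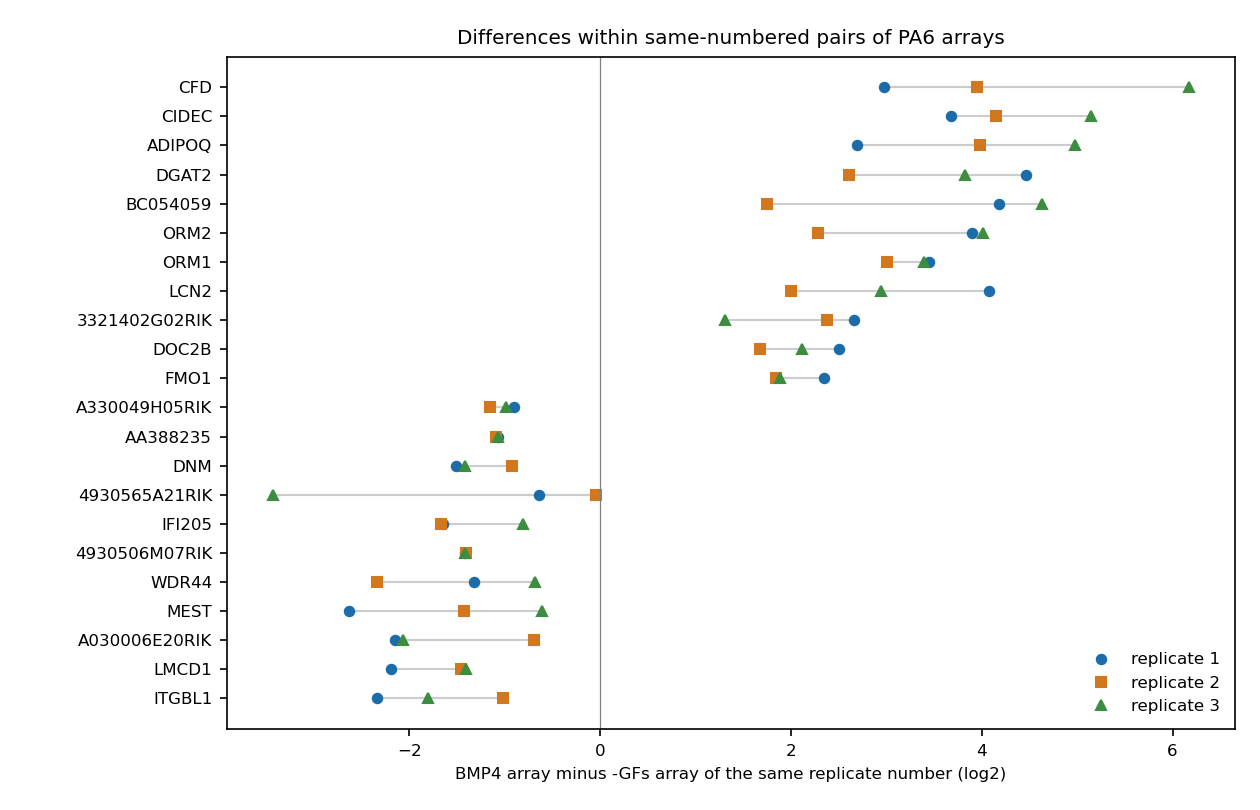
BMP4 array minus untreated array of the same replicate number (log2, x) for the 22 genes named for their size or their p (y), with 1 symbol per replicate and a grey line over the range. CFD, CIDEC and ADIPOQ lie over 2 in all 3 pairs, and 4930506M07RIK, AA388235 and A330049H05RIK have 3 symbols close together below 0.

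Among all tested genes, 752 had an unadjusted p under 0.05 on the lower side and 487 on the higher side. LMCD1, a LIM domain protein that binds GATA6 and acts in muscle and heart, was at 8.18, 7.73 and 8.32 without and at 5.99, 6.28 and 6.92 with BMP4, where 1 of 3 arrays detected it. All 3 BMP4 arrays were below all 3 untreated arrays. LMCD1 fell by 1.68 with the block (SE 0.17, adjusted p = 0.0526), and without the block the adjusted p was 0.194. A second probe of LMCD1 was lower in all 3 pairs as well, and another, detected on 3 of 6 arrays, was of mixed sign. AA388235, A330049H05RIK and 4930506M07RIK, transcripts without a described role, were detected on 3 untreated and 0 BMP4 arrays each, and were at least 1.26-fold, 1.30-fold and 1.53-fold lower with BMP4 (adjusted p = 0.0777, 0.0758 and 0.0777 with the block). The 4 lower genes were near background in at least 1 group.

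ITGBL1, a secreted protein with integrin-like repeats, was at 8.09, 8.02 and 7.89 without and at 5.75, 7.01 and 6.09 with BMP4. The groups did not overlap, and its difference of -1.72 was not called (adjusted p = 0.122 with the block and 0.232 without it). ITGBL1 was detected on 1 of 3 BMP4 arrays, so it was tested only through its untreated arrays and the size rests on background values. MEST, an imprinted gene linked to fat cell size, was at 9.46, 8.26 and 7.90 without and at 6.83, 6.83 and 7.29 with BMP4, a difference of -1.55 (adjusted p = 0.401 without the block and 0.262 with it). MEST too was detected on 1 of 3 BMP4 arrays and tested only through its untreated arrays. Both other probes of MEST were lower in all 3 pairs. IFI205, an interferon-inducible gene, was below its pair in all 3 replicates by a mean of 1.38, although the groups overlapped (adjusted p = 0.129 with the block). The other genes among the largest negative differences were WDR44, A030006E20RIK, DNM and 4930565A21RIK, none of which was called. The last had a difference of -3.43 in replicate 3 and of -0.64 and -0.05 in the other pairs.

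Most tested direct targets of BMP signalling differed little at day 7, with larger differences for ID1 and the probe listed as IDB4. By the study's methods the factor had been removed after 3 days, before these samples were taken. ID1, an inhibitor of helix-loop-helix factors and a classical early target, was at 7.79, 7.59 and 9.07 without and at 10.29, 8.26 and 9.77 with BMP4. It was higher in all 3 pairs, while untreated array 3 exceeded BMP4 array 2. Its difference of 1.29 was not called (adjusted p = 0.465 without the block and 0.27 with it). ID2, ID3 and ID4 differed by -0.27, 0.13 and 0.28, none with 3 pairs of 1 sign. The probe listed as IDB4, an older name of ID4, was higher in all 3 pairs with overlapping groups, and its difference of 0.85 was not called (adjusted p = 0.448 without the block and 0.343 with it). SMAD6, an inhibitory SMAD, was at 10.28 to 10.35 without and 10.28 to 10.50 with BMP4. MSX1, a homeobox target, differed by -0.37 and HEY1, a helix-loop-helix repressor shared with NOTCH signalling, by 0.47 (adjusted p = 0.326 and 0.372 with the block). SMAD7 and MSX2 were detected on 0 of 6 arrays. Of 18 targets 10 were tested, 0 were called in either comparison, and the median was 0.06.

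Among the ligands and receptors, the cells' own BMP4 transcript was at 12.11, 12.02 and 11.48 without and at 11.68, 11.76 and 11.55 with the added protein, a difference of -0.20 (adjusted p = 0.719). The type I receptor BMPR1A was lower on all 3 BMP4 arrays, with differences of -0.64, -0.26 and -0.39, and its difference of -0.43 was not called (adjusted p = 0.393 without the block and 0.285 with it). The type II receptor BMPR2 differed by 0.0020 with 2 pairs above and 1 below. Of 21 ligands, receptors and SMADs 10 were tested with a median of -0.08, and of 15 antagonists 10 were tested with a median of -0.09, with 0 called in both lists. The antagonist gene NOG was detected on 0 of 6 arrays and GREM1 on 4.

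Matrix genes of the stroma were mostly lower with BMP4. COL3A1, a fibrillar collagen, was at 13.78, 13.60 and 13.52 without and at 12.51, 12.90 and 11.87 with BMP4. The groups did not overlap, and its difference of -1.21 was not called (adjusted p = 0.342 without the block and 0.163 with it). A second probe of COL3A1 was lower in replicates 1 and 3 and higher in replicate 2. COL1A1 and COL1A2, the chains of type I collagen, differed by -0.73 and -0.60 (adjusted p = 0.388 and 0.217 with the block). Of 23 collagen and matrix genes 22 were tested and 0 were called. There were 11 below -GFs in all 3 pairs (20.6% of all genes were) and 1 above (14.3%), and the median was -0.25. The summed intensity of 12 stromal marker genes was 242796 to 284353 on the untreated arrays and 197032 to 235991 on the BMP4 arrays, whereas that of the 38 adipocyte genes was 42705 to 65045 and 62098 to 327247. COL1A1, COL1A2 and COL3A1 are among the 12 stromal genes, so the stromal sum is not separate from their values. Whether these sums had a part in the differences of single matrix genes was not tested.

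Genes of other fates open to stromal cells were in large part undetected. Of 22 osteoblast genes 10 were tested with a median of -0.18. Of these, 5 were lower and 1 higher in all 3 pairs (20.6% and 14.3% of all genes), 3 had an unadjusted p under 0.05 on the lower side (6.5%) and 0 on the higher side, and RUNX2, the master factor of bone, was detected on 0 of 6 arrays. SPP1, which encodes osteopontin, was at 9.71, 10.08 and 8.80 without and at 8.46, 9.65 and 10.00 with BMP4, with overlapping groups. SOX9, the master factor of cartilage, differed by -0.15. Of 21 cartilage genes 5 were tested, with COL2A1 and ACAN not among them. Of 15 smooth muscle contractile genes 10 were tested, 6 of which were lower in all 3 pairs (20.6% of all genes) and 0 higher, with a median of -0.19, and ACTA2 differed by -0.01. Among the signals that stroma sends to other cells, CXCL12 and CCL2, chemokines for blood stem cells and monocytes, differed by -0.02 and -0.08 (2 other bright probes of CXCL12 were higher in all 3 pairs, by 0.36 and 0.11, and the one used was close to the brightest level of the arrays), and the 12 tested chemokine and cytokine genes had a median of -0.04. None of these lists had a called gene.

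**Figure D4:**
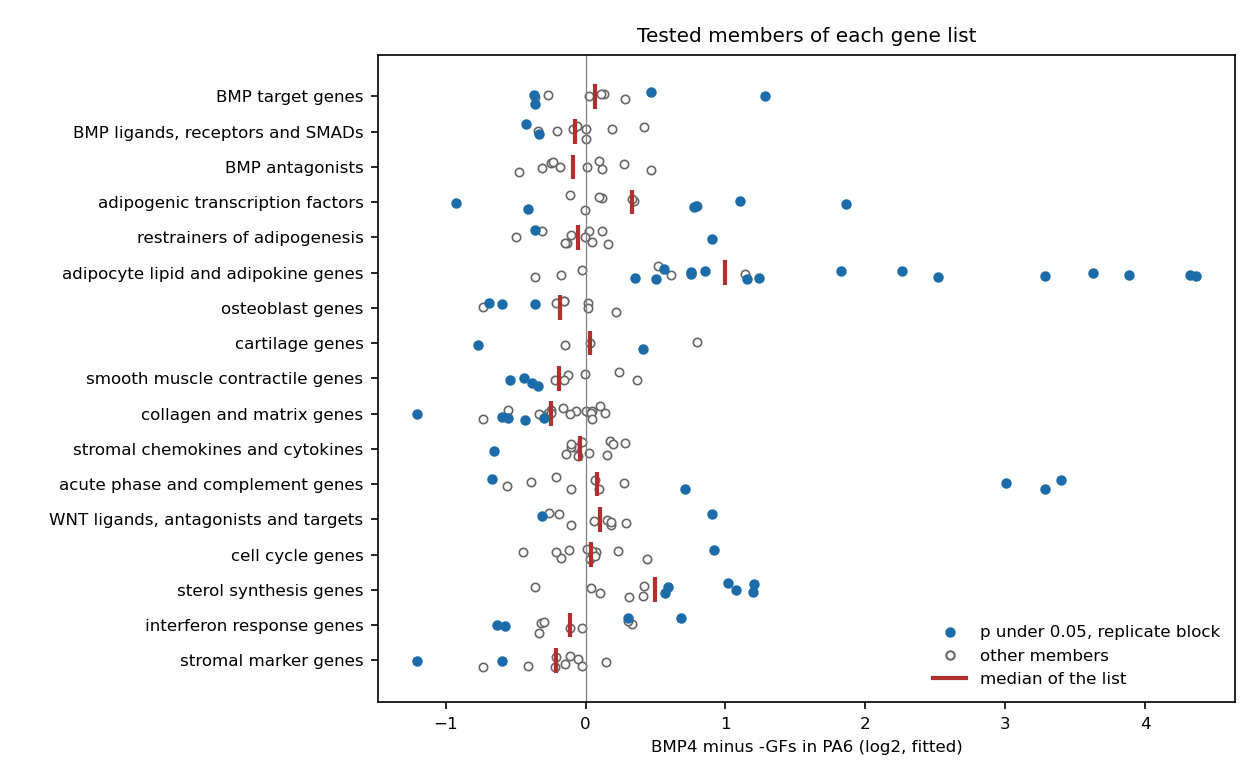
BMP4 minus -GFs difference (log2, x) of each tested gene of 17 lists (y), filled where the unadjusted p with the replicate block was under 0.05, with the median of each list as a red line. The adipocyte lipid and adipokine genes reach to 4.36 with a median of 0.996, sterol synthesis genes have a median of 0.49, and the medians of the BMP target and most other lists lie near 0.

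The stromal label was borne out in that 11 of 12 stromal genes were detected on all 6 arrays, with NT5E the exception. Of neural markers 0 of 10 and of epithelial markers 0 of 8 were detected on all 6 arrays, and TUBB3 and KRT14 on none. Of 10 endothelial markers 1 (EGFL7) and of 10 macrophage markers 2 (CD14 and LYZ) were detected on all 6 arrays, while PECAM1 and PTPRC were detected on none. Of 10 pluripotency markers DPPA5 was detected on all 6 arrays, POU5F1 on 3 and NANOG on 2, and the summed intensity of that list was 576 to 679 on the untreated and 587 to 1122 on the BMP4 arrays. The part of these genes in the results was not tested. The arrays detected 37.3% to 41.3% of probes in these 2 groups, and correlated across genes at 0.972 to 0.985 within a group and at 0.956 to 0.984 between BMP4 and -GFs.

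The second comparison set BMP4 against FGF2 in PA6 alone, and rests on the same 3 BMP4 arrays. Of 11574 genes 56 were called (0.484%), 26 higher (0.225%) and 30 lower (0.259%) with BMP4, and 110 (0.95%) with the block. The filter used the BMP4 and -GFs groups, so genes detected only with FGF2 were not tested. With the filter on any of the 6 groups, 46 were called without the block, 16 higher and 30 lower. Median scaling gave 147, 87 of them higher, and leaving out 1 PA6 array gave 3 to 59. The count was 8 without untreated array 1, 3, 14 and 5 without FGF2 arrays 1, 2 and 3, and 11 and 17 without BMP4 arrays 1 and 3. ADIPOQ was at 9.77, 5.92 and 7.30 on the FGF2 arrays, each below the untreated array of its number. With BMP4 it was higher than with FGF2 by 6.09 (adjusted p = 0.00555 with the block and 0.132 without it). The difference rests in part on a background value, since 2 of 3 FGF2 arrays detected ADIPOQ. CFD, also detected on 2 of 3 FGF2 arrays, rose by 6.75 against FGF2 in both comparisons (SE 1.30, adjusted p = 0.0851 without the block). CIDEC rose by 6.10 with the block (adjusted p = 0.00571), a difference that rests on 2 FGF2 arrays at background, since 1 of 3 detected CIDEC. Of the 22 adipocyte genes 1 was called without the block and 9 with it (0.458% of all genes were called higher with it), 0 of them lower, and the median was 1.25. FMO1 and DOC2B were called as well (adjusted p = 0.0576 and 0.0426 without the block). Both were detected on 0 of 3 FGF2 arrays, and were at least 4.12-fold and 1.62-fold higher with BMP4.

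Genes lower with BMP4 than with FGF2 included SPP1, which was at 12.27, 12.44 and 11.97 on the FGF2 arrays and differed by -2.85 (SE 0.42, adjusted p = 0.0576), and ITGBL1, which differed by -2.08 (adjusted p = 0.0642). The ITGBL1 difference rests on background values, since 1 of 3 BMP4 arrays detected it. BMP4 transcript was at 12.66, 12.99 and 12.59 on the FGF2 arrays, all above the untreated and the BMP4 arrays, and differed by -1.08 (adjusted p = 0.0644). ID3 was also higher on the FGF2 arrays, at 9.45, 9.79 and 9.64, and its difference of -0.92 did not reach the size threshold. GDPD2, a membrane glycerophosphodiesterase, and AOX3, an aldehyde oxidase, were called higher by 2.54 and 2.07 (adjusted p = 0.023 and 0.0426). On the untreated arrays GDPD2 was at 11.40 to 11.51 and on the BMP4 arrays at 11.72 to 11.89, against 8.61 to 9.68 with FGF2.

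The third comparison asked whether the BMP4 effect differs when ES cells are present, as the effect in co-cultures (2 BMP4 and 2 -GFs arrays) minus the effect in PA6 alone. Of the genes tested in PA6, 115 differed (0.994%), 92 higher (0.795%) and 23 lower (0.199%) in co-cultures, and 226 (1.95%) with the block. Here the block also joined co-culture arrays by replicate number. That pairing was checked for PA6 arrays only, and the order of the deposited columns does not follow it for co-cultures. Leaving out BMP4 array 1 or 3 of PA6 gave 40 or 57, and leaving out untreated array 1, 2 or 3 gave 75, 74 or 69. Co-cultures hold ES-derived cells, so that their arrays carry 2 sources of RNA. For ADIPOQ the co-culture effect was 2.91 and the difference of effects -0.97 (SE 2.22, adjusted p = 0.901), for CFD they were 2.78 and -1.58 (SE 2.26, adjusted p = 0.834), and for CIDEC 2.36 and -1.97 (SE 2.25, adjusted p = 0.784). ADIPOQ and CFD were detected on 1 of 2 co-culture -GFs arrays, and CIDEC on 1 of 2 arrays of each co-culture group. These co-culture effects therefore rest in part on background values. At these errors a difference between the kinds of culture in these 3 genes was not detectable with the arrays at hand. For DOC2B, the gene chosen by its call in PA6 and detected there only with BMP4, the co-culture effect was -0.0024, which is given as a description with no test. For FMO1 the co-culture effect was 0.0036. FMO1 too was chosen by its call in PA6 and passed the filter only through its BMP4 arrays, so this value is likewise a description with no test. PPARG gave a co-culture effect of 1.75 and a difference of 0.65 (adjusted p = 0.824).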

How the data were processed

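Gene expression was measured on 9 arrays of PA6 mono-cultures (3 each of -GFs, FGF2 and BMP4) and 7 arrays of ES/PA6 co-cultures, grouped by the growth factor and cell lines in the labels. The authors scanned the BeadChips with Illumina software (GenomeStudio 2011.01 per the labels) and deposited, for each probe and array, an average bead intensity without normalization between arrays. Each intensity was deposited with a detection p-value. The table had no genome build or coordinates. Of the genes tested, 9766 (84.4%) matched a symbol or synonym in a RefSeq table.

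Intensities were corrected with neqc of limma 3.58.1 in R 4.3.3 (normexp from detection p-values, quantile normalization over 16 arrays, offset 16, log2). The brightest probe by mean over all arrays stood for its gene. Linear models were fitted to the 9 PA6 arrays, so that FGF2 arrays shared in the estimate of spread, and to 16 arrays for the difference of effects. SE is that of the fitted difference, SD is between arrays. Deviations from the group mean correlated at 0.117 to 0.279 for the 9 pairs of same-numbered PA6 arrays and at -0.203 to -0.00398 for the 18 others. With 1 well of each condition per biological replicate in the labels, the numbers pair the PA6 samples, and blocked values are given beside the results. The pairing of co-culture arrays was not checked. Genes were named by rule as the 8 largest differences each way with 3 pairs of 1 sign, the 5 lowest p values each way with the block, and the core genes of 23 lists. The samples, lists and genes were chosen with earlier results of these data known. The number of arrays limits the precision. The fits were tested on simulated data. Alternatives covered pairing, normalization, background correction, filters, probes, variance prior, array weights, thresholds and left-out arrays, and 8 were added after the data had been seen, namely the filter on any of 6 groups and the combinations of the block with another setting. Some single genes are not reported here.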

Additional observations from a re-analysis of the deposited data

Results flagged for a closer look

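Of the 115 genes whose BMP4 effect differed between co-cultures and PA6 alone by a test of the difference itself (limma, all 16 arrays), 3 are described by name here. For the BMP4 transcript, detected on every array of the groups compared, the effect in co-cultures exceeded that in PA6 by 1.945 (SE 0.462, adjusted p = 0.0904). For GYS2, the liver-type glycogen synthase, the difference of effects was -3.695, and for DOC2B, the calcium sensor of vesicle fusion, it was -2.102. Both were detected on 3 BMP4 and 0 untreated arrays of PA6, so they were tested only through the group where they were high, and both values are set against a level at background and are given as a description.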

How the results depend on the processing

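The number of genes called for BMP4 against -GFs, 1 without and 11 with the replicate block, depended on the processing. Without the block it was 0 with neqc over the 9 PA6 arrays alone, with detection on all 6 arrays, with a detection p under 0.01, without a filter, with the filter on any of 6 groups, with only the 6 arrays, with a trend in the variance prior and at an adjusted p under 0.05, where 1069 to 2046 genes still had an unadjusted p under 0.05. It was 44 with median scaling, which moved the median of all genes to -0.17, and 0 to 5 with 1 array left out. With the block it was 8 on only the 6 arrays, 4 with PA6 arrays normalized alone, 74 with median scaling, 10 without background correction, 1 with detection on all 6 arrays and 0 without a filter or with the filter on any of 6 groups. Leaving out replicate 1, 2 or 3 from the blocked comparison gave 1, 0 and 0.

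For BMP4 against FGF2 the count of 56 became 110 with the block, 147 with median scaling, 2 without a filter, 6 at an adjusted p under 0.05, 87 without a minimum fold and 3 to 59 with 1 array left out. With the block it was 9, 30 and 4 without replicate 1, 2 and 3, 108 with PA6 arrays normalized alone, 177 with median scaling, 86 with detection on all 6 arrays and 19 without a filter. For the difference of effects the count of 115 became 226 with the block, 433 without a filter, 57 at an adjusted p under 0.05, 628 with the filter on any of 6 groups and 40 to 106 with 1 array left out. The cause was not tested. The filter changes how many genes share the adjustment, 10670 with detection on all 6 arrays and 30854 without a filter.

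The sign of the difference turned for 14 named genes, none of them called. With median scaling, with and without the block, it became -0.015 for ID3, -0.061 for SMAD6, -0.036 for BMPR2, -0.039 for CEBPB, -0.071 for DLK1, -0.10 for C3 and -0.0036 for AXIN2. With array weights it became 0.13 for ACTA2, 0.083 for CCL2, -0.091 for AXIN2 and 0.18 for THY1. With a replicate left out of the blocked comparison it became -0.19 and -0.10 for BMPR2 (replicates 2 and 3), -0.031 for CEBPB, 0.025 for CEBPD, 0.39 for SPP1, 0.014 for ACTA2 and 0.046 for CCL2 (replicate 1), -0.0059 for DLK1 (replicate 3) and 0.013 for CXCL12, -0.14 for AXIN2 and 0.057 for SFRP2 (replicate 2). With 1 array left out and no block, the difference ranged from -0.14 to 0.20 for BMPR2, from -0.040 to 0.33 for CEBPB, from -0.011 to 0.10 for DLK1, from -0.52 to 0.30 for SPP1, from -0.17 to 0.18 for ACTA2, from -0.087 to 0.021 for CXCL12, from -0.35 to 0.11 for CCL2, from -0.027 to 0.16 for C3, from -0.17 to 0.34 for AXIN2 and from -0.35 to 0.24 for THY1. The other 62 named genes tested here kept their direction under the alternatives that gave them a value.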

Other observations

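Genes of sterol synthesis were a second group with mostly higher values under BMP4 in PA6 cells, and 12 of 17 were tested. None was called, and 6 had an unadjusted p under 0.05 on the higher side (4.21% of all genes did). In all 3 pairs 6 were higher (14.3% of all genes) and 0 lower (20.6%). The median was 0.49, and within replicates 1, 2 and 3 it was 1.22, 0.31 and 0.32. FDPS, which makes farnesyl diphosphate, was at 11.33, 11.20 and 10.99 without and at 13.26, 11.78 and 12.09 with BMP4. The groups did not overlap, and the difference was 1.20 (SE 0.33, adjusted p = 0.358 without the block and 0.205 with it). CYP51, which demethylates lanosterol, differed by 1.07 (adjusted p = 0.293 with the block). HSD17B7, a reductase of the same pathway, differed by 1.02 (adjusted p = 0.305 with the block).

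On the FGF2 arrays, where ADIPOQ and CFD were each below the untreated array of the same number, the 12 sterol genes had a median of 1.10 for FGF2 minus -GFs. FDPS was at 13.20, 12.75 and 13.05 on the FGF2 arrays, above every untreated array. The 12 genes had a median of -0.32 for BMP4 minus FGF2, with 0 called in either direction with or without the block, and the FGF2 and BMP4 differences share their untreated arrays.

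Of 16 interferon response genes 11 were tested with a median of -0.11. Of 21 cell cycle genes 12 were tested with a median of 0.04, and MKI67 was detected on 1 of 6 arrays. Of 28 WNT ligands, antagonists and targets 10 were tested with a median of 0.10, and WNT4 was detected on 0 of 6 arrays.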
